A study of Mus musculus with 12 samples.

Results

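The 36 mitosis genes described here encode the cyclins, kinases, motors and kinetochore and cytokinesis proteins that carry a cell through division. They were picked by gene symbol from a table of 50643 genes, and all 36 had enough counts to be tested, among 16694 genes tested in all. RNA was measured in preparations of NK cells, lymphocytes of innate immunity, from the spleens of C57BL/6 mice. They were made by negative isolation, which is meant to remove other cells and leave the NK cells untouched. Markers of other cell types were also found in every group, with values given below. There were 3 libraries each of challenged Mirc11-/-, unchallenged Mirc11-/-, challenged wild-type and unchallenged wild-type mice, where the challenge was with the bacterium Listeria. The Mirc11 locus gives rise to miR-24-3p, miR-27a-3p and miR-23a-3p, and what the Mirc11-/- allele removes beyond this name, the age and sex of the mice, and when and how they were infected have no statement in the sources used here.

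In a dividing cell, cyclin B with its kinase Cdk1 drives entry into mitosis, the spindle attaches to chromosomes at kinetochores, and a checkpoint holds the cell until each chromosome is attached. The anaphase-promoting complex, APC/C, then marks cyclin B for destruction, the chromosomes part and the cell divides. Transcripts of these genes build up in late S phase, G2 and mitosis, so their level in a tissue follows how many of its cells are dividing, and NK cells in a resting spleen divide little while infection can make them proliferate.

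Library totals ran from 17624530 to 23665679 counts. The study calls the libraries biological replicates without naming separate animals, and p-values therefore measure only the spread between these libraries, which may be technical. Mir23a, Mir27a and Mir24-2 had 0 counts in all 12 libraries and so check nothing about the genotype labels. Gm26532, a transcript that adjoins Mir24-2 and was chosen after its values were seen, stood at 0.887, 0.984 and 2.7 CPM (a gene's count scaled to the library total) in challenged Mirc11-/- replicates 1 to 3 and at 0.113, 0.498 and 0.149 CPM in the unchallenged ones, against 2.34, 4.27 and 3.4 CPM in challenged wild-type and 2.67, 2.35 and 4.88 CPM in unchallenged wild-type libraries, which puts the library labelled challenged Mirc11-/- replicate 3 inside the wild-type range. Sex-linked transcripts differed between the groups. Xist, transcribed from the inactive X chromosome, measured 526, 694 and 1030 CPM in challenged and 1.08, 0.362 and 0.743 CPM in unchallenged Mirc11-/- libraries, against 1460, 1360 and 1150 CPM in challenged and 2020, 1740 and 1200 CPM in unchallenged wild-type libraries. The Y-linked Ddx3y measured 44.7, 80.5 and 44.1 CPM in challenged and 135, 106 and 83.6 CPM in unchallenged Mirc11-/- libraries, against 0.0433, 0.133 and 0 CPM in challenged and 0.0546, 0.102 and 34.6 CPM in unchallenged wild-type libraries. Genotype and sex-linked transcripts cannot be told apart in this design, nor, within Mirc11-/-, can challenge and sex-linked transcripts. Unchallenged wild-type replicate 4, the only wild-type library with Ddx3y above 1 CPM, was also the lowest of its group in the mitosis genes, with a sum of 790.8 CPM against 1002 and 993.4 CPM in replicates 2 and 3, so results are given without it where it matters.

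Promoters of mitosis genes often hold a cell cycle gene homology region (CHR, with the letters TTTGAA or, less often, TTCGAA), which MuvB complexes bind, and CCAAT boxes, which NF-Y binds. RefSeq promoters (GRCm38.p6, 250 bases before to 50 after the start) were at hand for 30 of the 36 genes (not Aurkb, Ccna2, Foxm1, Incenp, Kif20a and Tpx2), as 32 windows, and both strands were searched. TTTGAA stood in 25 of 32 windows, or 78.1%, against 13.0% of 14098 promoters of tested genes and 17.9% of 32851 promoters of all genes. TTCGAA stood in 3 of 32, or 9.4%, against 2.1% and 1.6% in the same 2 sets. CCAAT stood in 78.1% of the windows, against 37.5% of promoters of tested genes and 37.4% of all promoters, and 56.2% held it more than once, against 13.8% and 11.7%. Both elements together stood in 71.9% of the windows, against 6.0% and 7.5%. The letters TATAAA, those of a TATA box, were in 1 window, or 3.1%, against 7.8% of promoters of tested genes and 13.6% of all promoters. That match, in Kif2c, began at position -228 relative to the start. Pairs of CCAAT boxes with 31 to 33 bases from the start of one to the start of the next, a spacing chosen after the hits were seen, were in 7 windows (Aurka, Ccnb1, Ccnb2, Cdk1, Hmmr, Spc25 and Ube2c), or 21.9%, against 1.6% and 1.0%. The next 8 stretches, from 110 bases before to 20 after the start, are shown because they come from members of several roles and place the elements relative to the start, with Birc5 as one that holds neither element. Capitals mark TTTGAA, its variant TTCGAA, and the CCAAT box, or on the other strand TTCAAA for the first and ATTGG for the last.
Ccnb2 (chr9:70421535-70421664, minus strand): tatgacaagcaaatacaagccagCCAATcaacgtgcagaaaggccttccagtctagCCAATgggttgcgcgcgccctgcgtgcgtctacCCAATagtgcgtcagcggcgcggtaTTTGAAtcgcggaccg
Cdk1 (chr10:69352893-69353022, minus strand): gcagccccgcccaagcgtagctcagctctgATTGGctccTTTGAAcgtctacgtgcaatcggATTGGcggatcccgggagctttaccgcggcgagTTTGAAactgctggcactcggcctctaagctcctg
Top2a (chr11:99024170-99024299, minus strand): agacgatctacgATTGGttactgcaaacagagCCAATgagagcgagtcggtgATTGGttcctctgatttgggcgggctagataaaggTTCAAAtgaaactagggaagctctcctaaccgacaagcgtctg
Bub1 (chr2:127831840-127831969, minus strand): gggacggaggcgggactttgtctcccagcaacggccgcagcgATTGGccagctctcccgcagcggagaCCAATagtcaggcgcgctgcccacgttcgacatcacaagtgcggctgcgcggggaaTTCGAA
Ube2c (chr2:164769819-164769948, plus strand): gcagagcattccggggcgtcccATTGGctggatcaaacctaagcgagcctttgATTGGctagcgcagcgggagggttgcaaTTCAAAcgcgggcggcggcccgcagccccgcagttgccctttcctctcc
Cdc20 (chr4:118437324-118437453, minus strand): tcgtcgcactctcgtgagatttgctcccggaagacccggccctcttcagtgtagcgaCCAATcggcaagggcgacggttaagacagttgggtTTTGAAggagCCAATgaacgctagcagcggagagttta
Kif11 (chr19:37376272-37376401, plus strand): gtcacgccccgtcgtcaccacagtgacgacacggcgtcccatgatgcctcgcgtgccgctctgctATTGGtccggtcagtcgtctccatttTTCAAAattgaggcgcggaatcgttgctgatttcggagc
Birc5 (chr11:117849127-117849256, plus strand): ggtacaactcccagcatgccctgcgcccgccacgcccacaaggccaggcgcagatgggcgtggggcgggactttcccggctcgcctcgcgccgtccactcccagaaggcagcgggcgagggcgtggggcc
In Ccnb2, 3 CCAAT boxes precede a TTTGAA that begins 5 bases past the start, and in Cdc20 a TTTGAA lies between 2 CCAAT boxes. Ube2c carries both elements on the reverse strand in this stretch. Bub1 carries the TTCGAA form, and Birc5 holds none of these letters in its whole window. A match of these letters is a description of the sequence and was not tested as a binding site.

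The mitosis genes had one order of levels throughout. In all 36, the mean CPM was highest in challenged wild-type libraries, then in challenged Mirc11-/-, then in unchallenged Mirc11-/-, and lowest in unchallenged wild-type. Their summed level was 1989, 2085 and 1986 CPM in challenged and 1428, 1409 and 1424 CPM in unchallenged Mirc11-/- libraries, against 2946, 2653 and 2833 CPM in challenged and 1002, 993.4 and 790.8 CPM in unchallenged wild-type libraries. The sums of the 4 groups did not overlap. How many of all tested genes have the same order of group means was not counted. In lists described below, 24 of 34 other kinetochore and centromere genes had it. So did 16 of 29 other spindle, motor and cytokinesis genes and 12 of 16 mitotic entry regulators. It was found in 9 of 20 condensin, cohesin and separase genes and 3 of 17 other APC/C subunits and regulators. As these are bulk samples, fewer dividing cells and less RNA per dividing cell cannot be told apart. All comparisons below come from one model of the 12 libraries and share libraries with each other, so their directions are not independent of one another.

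**Figure D1:**
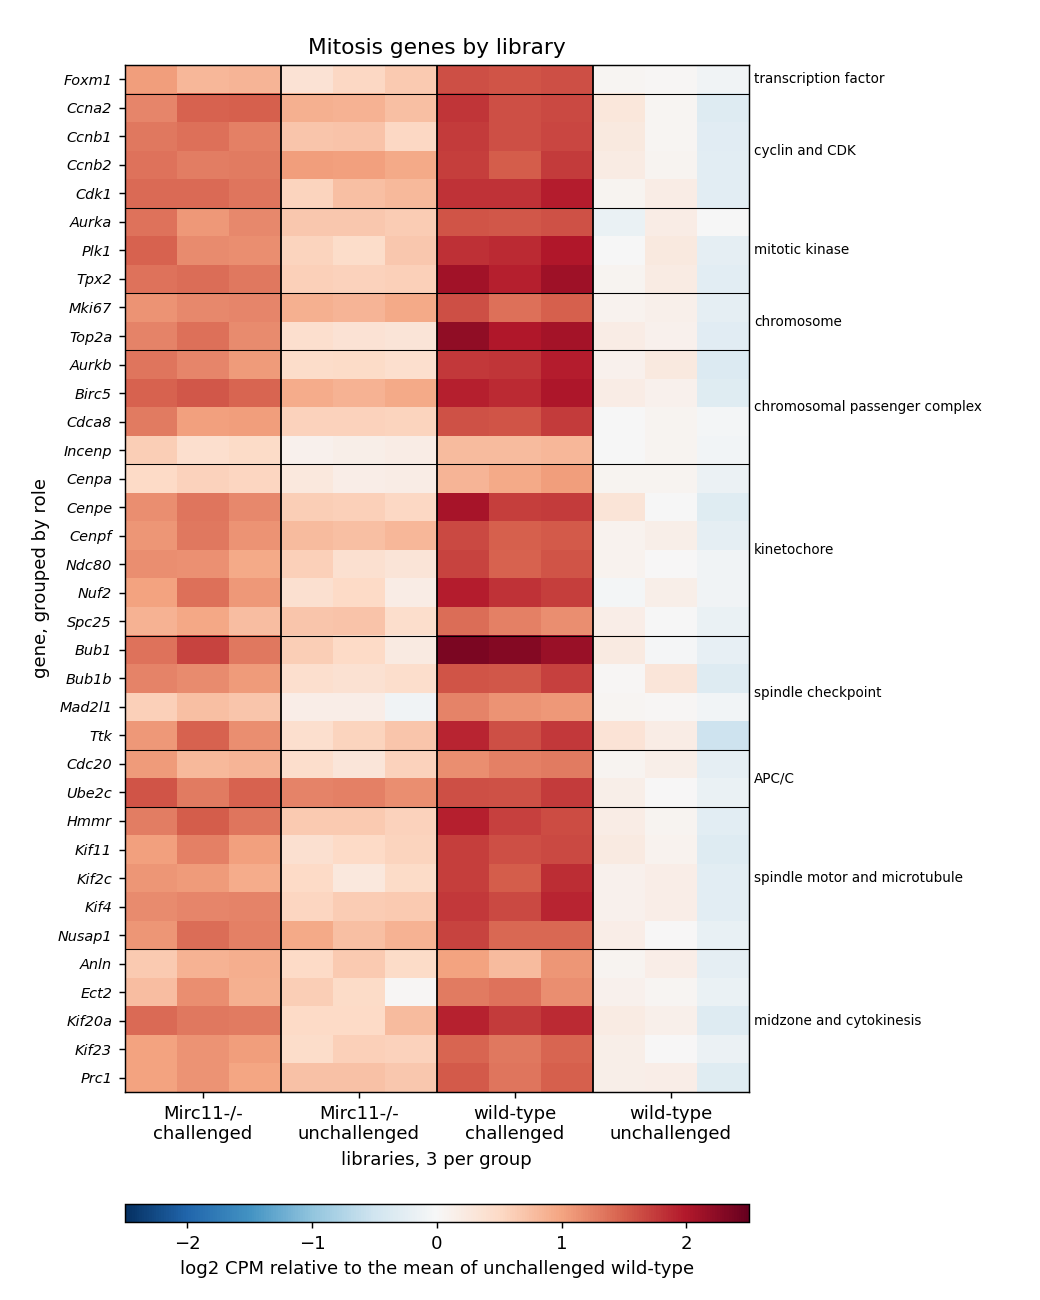
Level of each of the 36 mitosis genes (rows, grouped by role) in each of the 12 libraries (columns, 3 per group), as log2 CPM relative to the mean of the unchallenged wild-type libraries. Library medians run from 1.14 to 1.22 in challenged Mirc11-/-, are 0.57 in all 3 unchallenged Mirc11-/-, and run from 1.57 to 1.70 in challenged wild-type libraries; the last column, unchallenged wild-type replicate 4, has a median of -0.23.

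With Listeria challenge, most of the set rose in Mirc11-/- libraries, and all of it rose, by more, in wild-type libraries. In Mirc11-/- libraries 33 of 36 genes rose (edgeR quasi-likelihood F test, adjusted p below 0.05), against 15.6% of all tested genes called higher (11.5% lower, 27% in either direction), and the median log2 fold change was 0.58, from 0.22 for Ube2c to 1.01 for Bub1. In wild-type libraries all 36 rose, against 32.4% of all tested genes called higher (30.9% lower, 63.4% in either direction), with a median log2 fold change of 1.75, from 0.90 for Incenp to 2.36 for Bub1. The median over all tested genes was -0.01 in both. Values in CPM are given in replicate order, replicates 1 to 3 of challenged and 2 to 4 of unchallenged groups, and a log2 fold change is followed by its standard error. The CPM ranges of challenged and unchallenged libraries did not overlap for 35 of 36 genes in Mirc11-/-, against 20.9% of tested genes that lay higher in this way, and for 36 of 36 in wild-type, against 30.1%. The 3 genes not called in Mirc11-/- were Ube2c (log2 0.22 ± 0.091, adjusted p = 0.0938), Spc25 (log2 0.24 ± 0.11, adjusted p = 0.127) and Anln (log2 0.26 ± 0.11, adjusted p = 0.0977). Leaving out single Mirc11-/- libraries also took Mki67, Ccnb2, Prc1 and Nusap1 out of the called genes, at adjusted p of up to 0.0966, 0.107, 0.0802 and 0.0559, and without the library labelled challenged Mirc11-/- replicate 3 the count was 31, and 35 were then lower in Mirc11-/- after challenge and 36 differed in response.

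**Figure D2:**
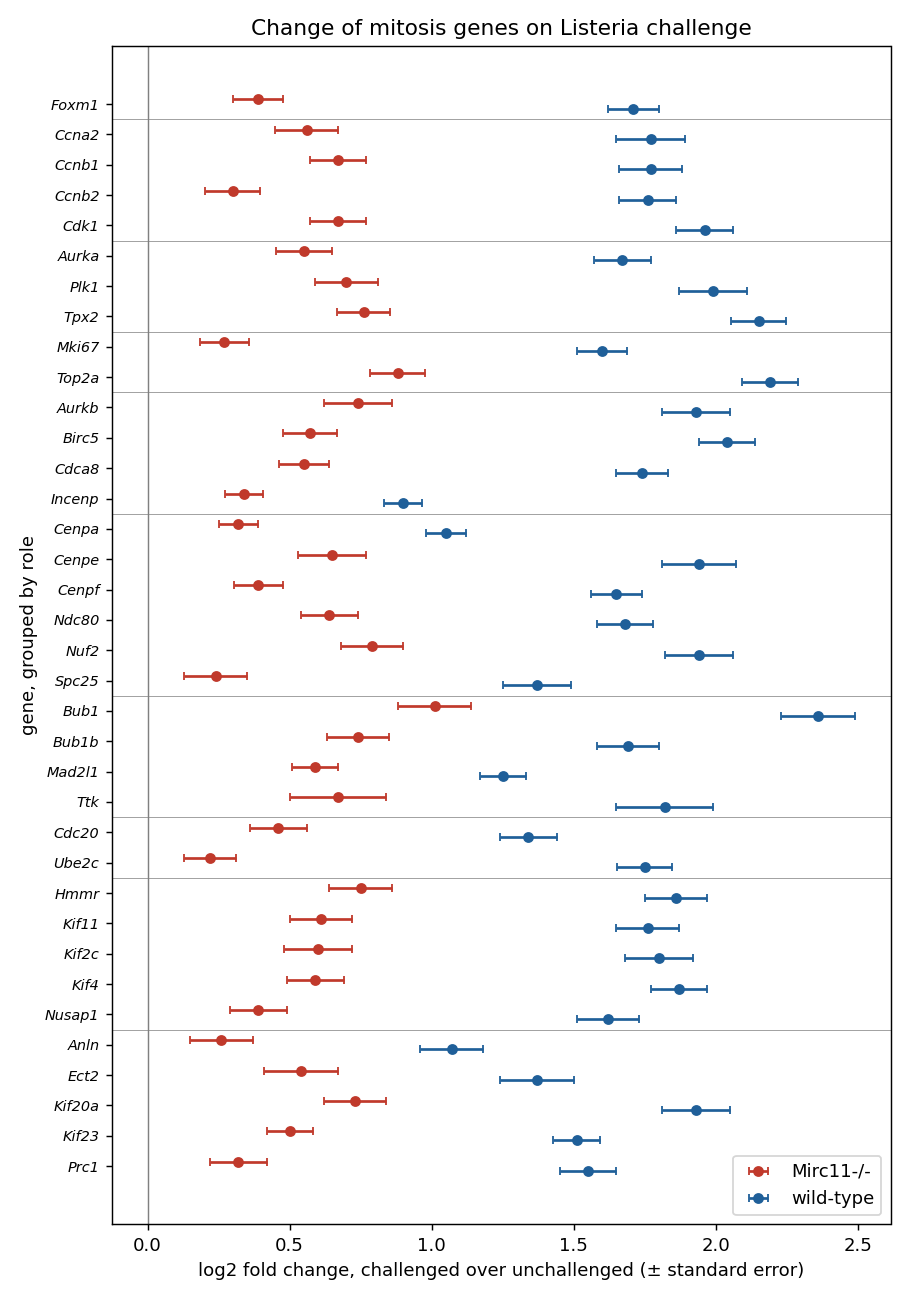
Log2 fold change of each mitosis gene on challenge, with its standard error, in Mirc11-/- (red, upper point of each pair) and wild-type (blue, lower point). The medians are 0.58 in Mirc11-/- and 1.75 in wild-type, and for each gene the Mirc11-/- point lies left of the wild-type point.

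The difference between the 2 responses was itself tested. It was negative and called for all 36 genes, against 18.5% of all tested genes called lower (16.7% higher, 35.2% in either direction), with a median log2 difference of -1.19, from -0.56 for Incenp to -1.53 for Ube2c, and a median over all tested genes of 0. On the log2 scale the Mirc11-/- response was a median 33.8% of the wild-type response, from 12.4% for Ube2c to 46.9% for Mad2l1. Without unchallenged wild-type replicate 4 all 36 remained called and the median was -1.08.

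The genes were higher without challenge and lower after it in Mirc11-/- than in wild-type libraries, and both gaps make up the smaller response. Unchallenged and challenged groups are different libraries, and genotype and sex-linked transcripts cannot be told apart in either gap. Without challenge, 30 of 36 were higher in Mirc11-/- than in wild-type libraries, against 6.64% of all tested genes called higher (5.07% lower, 11.7% in either direction), with a median log2 fold change of 0.58. Ranges did not overlap for 33 of 36, against 14.4% of tested genes, the exceptions being Bub1, Mad2l1 and Ect2. Ube2c, Ccnb2, Birc5 and Mki67 differed most, with log2 fold changes of 1.24, 1.01, 0.92 and 0.91. Cenpa, Ttk, Nuf2, Incenp, Mad2l1 and Ect2 were not called, at log2 values of 0.22, 0.54, 0.38, 0.17, 0.10 and 0.41. Without unchallenged wild-type replicate 4 the count was 24 and the median 0.47, and Top2a, Cdc20, Aurkb, Bub1, Bub1b and Kif2c were no longer called. Without unchallenged Mirc11-/- replicate 2 it was also 24, and without replicate 3 of that group it was 26; Ndc80 was the only other gene lost in either. Of the 30, 23 stayed called in every one of the 12 fits that left out a library.

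After challenge, 35 of 36 genes were lower in Mirc11-/- than in wild-type libraries, against 25.9% of all tested genes called lower (22.7% higher, 48.7% in either direction), with a median log2 fold change of -0.55. Ranges did not overlap for 35 of 36, against 22.3% of tested genes. Top2a, Bub1 and Tpx2 differed most, at -0.94, -0.89 and -0.80. Anln was the gene not called (log2 -0.25 ± 0.11, adjusted p = 0.0712), with 19.6, 23 and 23.5 CPM in Mirc11-/- and 25, 21.7 and 26.8 CPM in wild-type libraries. Ect2 lost its call without challenged wild-type replicate 2 (adjusted p = 0.0523), and Ube2c without challenged wild-type replicate 3 or challenged Mirc11-/- replicate 2 (adjusted p = 0.0589 and 0.083). Without challenged wild-type replicate 2, Anln was called, at a log2 value of -0.33.

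**Figure D3:**
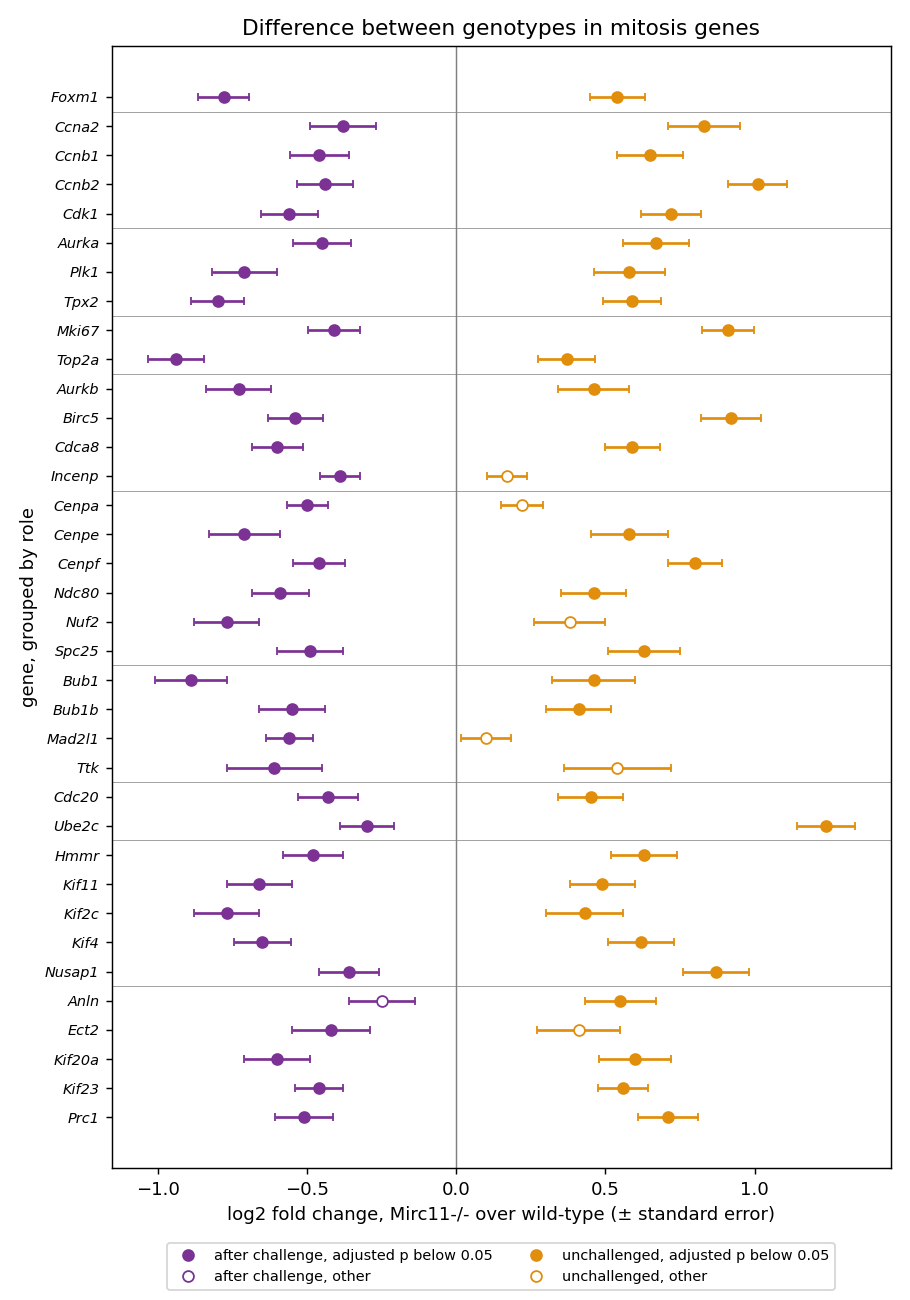
Log2 fold change of each mitosis gene in Mirc11-/- over wild-type libraries, with its standard error, after challenge (purple) and without it (orange); filled points have an adjusted p below 0.05. All purple points lie left of 0 and all orange points right of it, with Ube2c the farthest right at 1.24 and Top2a the farthest left at -0.94.

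The share of the difference that stood between the unchallenged groups varied from gene to gene. The gap without challenge made up a median 49.2% of the difference between the responses, from 15.8% for Mad2l1 to 80.7% for Ube2c. It was over 50% in 16 genes. Without unchallenged wild-type replicate 4 the median was 43.6%, from 11.7% for Mad2l1 to 79.7% for Ube2c, and 15 genes were over 50%; without replicate 3 of that group it was 52.9%, with 23 genes over 50%. The share was high for Nusap1 (70.6%), Ccnb2 (69.5%), Anln (68.9%), Ccna2 (68.8%) and Mki67 (68.7%), and low for Top2a (28.6%), Cenpa (30.8%), Incenp (30.9%), Nuf2 (33.4%) and Bub1 (33.8%). The shares were not tested against each other.

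Foxm1 encodes the forkhead factor that drives transcription of many G2 and mitosis genes. It measured 37.9, 32.3 and 33 CPM in challenged and 23.5, 26.1 and 28.7 CPM in unchallenged Mirc11-/- libraries, against 55.9, 54.3 and 56.1 CPM in challenged and 18.9, 18.7 and 17.2 CPM in unchallenged wild-type libraries. The 4 groups did not overlap, and the challenged wild-type libraries were the highest. Its log2 fold change on challenge was 0.39 ± 0.088 (adjusted p = 0.00403) in Mirc11-/- and 1.71 ± 0.09 (adjusted p = 2.71e-10) in wild-type.

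Cdk1 is the kinase of mitotic entry, and Ccna2, Ccnb1 and Ccnb2 are its cyclin partners. Cdk1 stood at 41.8, 41.5 and 39.6 CPM in challenged and 22.9, 26.4 and 27.5 CPM in unchallenged Mirc11-/- libraries, against 54.8, 54.8 and 60.6 CPM in challenged and 16.4, 17.8 and 13 CPM in unchallenged wild-type libraries. Every challenged library lay above every unchallenged one, and challenged wild-type lay above challenged Mirc11-/-. The change on challenge was 0.67 ± 0.099 (adjusted p = 0.000135) in Mirc11-/- and 1.96 ± 0.1 (adjusted p = 2.61e-10) in wild-type on the log2 scale. Ccnb2 had 37.2, 35.2 and 35.6 CPM in challenged and 29.9, 29.4 and 28 CPM in unchallenged Mirc11-/- libraries, against 47.8, 41.2 and 48.7 CPM in challenged and 16.6, 15.1 and 12.1 CPM in unchallenged wild-type libraries. Its unchallenged Mirc11-/- libraries were thus nearer to the challenged Mirc11-/- ones than to unchallenged wild-type, with a log2 fold change of 1.01 ± 0.1 (adjusted p = 7.46e-06) over unchallenged wild-type. Ccnb1 averaged 36.3 ± 1.6 CPM in challenged and 22.7 ± 1.6 CPM in unchallenged Mirc11-/-, against 46.7 ± 2 and 14.7 ± 2.7 CPM in challenged and unchallenged wild-type (SD, n = 3 each). Ccna2 averaged 72.5 ± 7.4 CPM in challenged and 48.9 ± 2.7 CPM in unchallenged Mirc11-/-, against 88.1 ± 5.4 and 27.8 ± 5.6 CPM in challenged and unchallenged wild-type. Differences between the responses were -1.11 ± 0.15 (adjusted p = 3.28e-05) for Ccnb1 and -1.21 ± 0.16 (adjusted p = 4.22e-05) for Ccna2.

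Of the mitotic kinases, Plk1 matures centrosomes and triggers later steps, and Aurka builds the spindle poles. Tpx2, not itself a kinase, activates Aurka and nucleates microtubules. Tpx2 stood at 50.4, 52.1 and 49.4 CPM in challenged and 30, 29.3 and 29.8 CPM in unchallenged Mirc11-/- libraries, against 85, 76.2 and 86.1 CPM in challenged and 20.7, 22.8 and 16.4 CPM in unchallenged wild-type libraries. It changed by 0.76 ± 0.093 (adjusted p = 2.28e-05) in Mirc11-/- and by 2.15 ± 0.096 (adjusted p = 4.33e-11) in wild-type, with no overlap between any 2 groups. Plk1 had 33.8, 27.7 and 27.1 CPM in challenged and 18, 16.8 and 19.5 CPM in unchallenged Mirc11-/- libraries, against 43.2, 44.6 and 48.6 CPM in challenged and 12.1, 14.4 and 10.4 CPM in unchallenged wild-type libraries. Aurka averaged 20.5 ± 2.1 CPM in challenged and 13.9 ± 0.26 CPM in unchallenged Mirc11-/-, against 26.1 ± 0.2 and 8.84 ± 1.1 CPM in challenged and unchallenged wild-type. The responses of Plk1 and Aurka differed by -1.29 ± 0.16 (adjusted p = 2.3e-05) and -1.12 ± 0.14 (adjusted p = 2.46e-05) on the log2 scale.

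Mki67 encodes the Ki-67 protein that coats mitotic chromosomes and is used as a marker of proliferating cells, and Top2a encodes the topoisomerase that untangles sister chromatids. They were the most abundant members by CPM in each group. Mki67 measured 474, 500 and 510 CPM in challenged and 405, 395 and 419 CPM in unchallenged Mirc11-/- libraries, against 669, 564 and 617 CPM in challenged and 233, 239 and 186 CPM in unchallenged wild-type libraries. Top2a measured 241, 265 and 231 CPM in challenged and 137, 132 and 129 CPM in unchallenged Mirc11-/- libraries, against 474, 410 and 436 CPM in challenged and 116, 110 and 84.4 CPM in unchallenged wild-type libraries. The responses of both differed between the genotypes by -1.32 ± 0.12 (adjusted p = 9.84e-07) for Mki67 and -1.31 ± 0.14 (adjusted p = 3.13e-06) for Top2a. Mki67 was already high in unchallenged Mirc11-/- libraries (log2 0.91 ± 0.087, adjusted p = 3.77e-06 over wild-type), while Top2a was low in challenged Mirc11-/- libraries (log2 -0.94 ± 0.095, adjusted p = 1.12e-06 against wild-type). Per kilobase of exon, Mki67 stood at 49.2 CPM in challenged and 40.4 CPM in unchallenged Mirc11-/-, against 61.3 and 21.8 CPM in challenged and unchallenged wild-type, the highest of the 36 genes in each group on that scale. Ttk stood at 2.30 CPM per kilobase in challenged and 1.43 in unchallenged Mirc11-/-, against 3.27 and 0.998 in challenged and unchallenged wild-type, the lowest of the 36 in each group except challenged wild-type, where Anln was lower at 2.70.

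**Figure D4:**
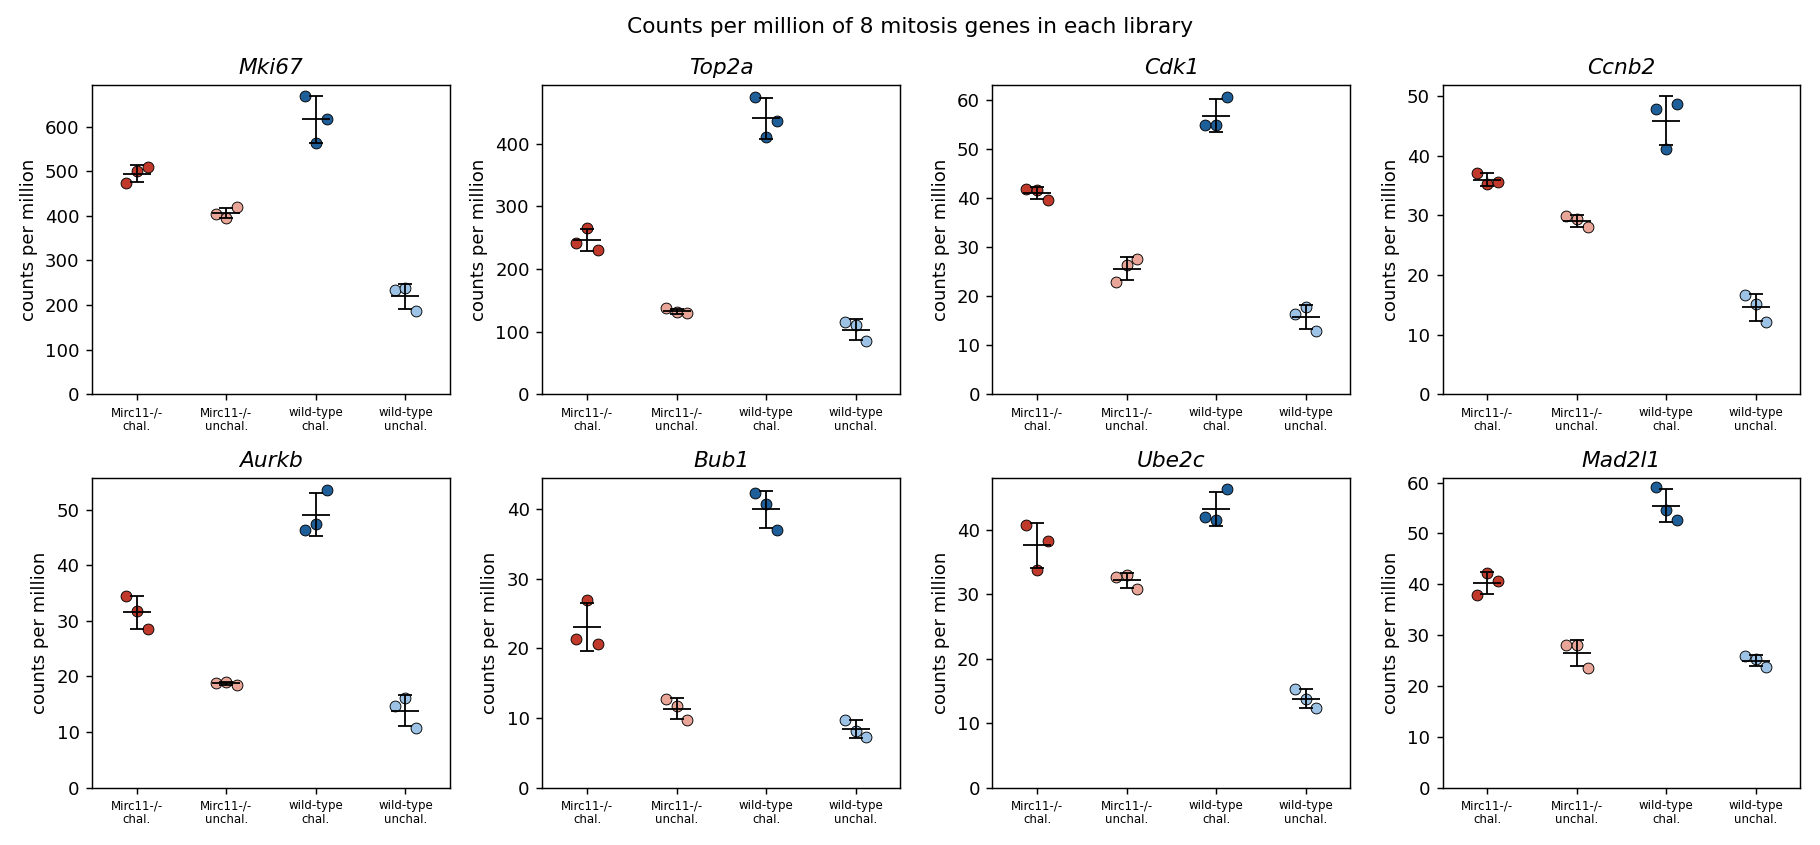
CPM of 8 mitosis genes in each library (points), with the mean and SD of the 3 libraries of each group (black). Groups run from left to right as challenged Mirc11-/-, unchallenged Mirc11-/-, challenged wild-type and unchallenged wild-type; Ube2c stands at 30.8 to 33 CPM in unchallenged Mirc11-/- and 12.3 to 15.3 CPM in unchallenged wild-type, while the ranges of Mad2l1 in the same groups overlap.

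The chromosomal passenger complex, which corrects wrong attachments and guides cytokinesis, consists of the kinase Aurkb, the scaffold Incenp, survivin (Birc5) and borealin (Cdca8). Birc5 stood at 40.2, 42.4 and 39.5 CPM in challenged and 27.5, 26.1 and 27.9 CPM in unchallenged Mirc11-/- libraries, against 55.4, 52.5 and 58.7 CPM in challenged and 16.4, 15.5 and 11.7 CPM in unchallenged wild-type libraries. Incenp stood at 83, 72 and 75.3 CPM in challenged and 58.4, 60.2 and 61.8 CPM in unchallenged Mirc11-/- libraries, against 93.7, 93 and 95.5 CPM in challenged and 53.9, 56.6 and 51.7 CPM in unchallenged wild-type libraries. Subunits of the same complex thus moved by different amounts: on challenge in Mirc11-/- Birc5 changed by 0.57 ± 0.095 (adjusted p = 0.000354) and Incenp by 0.34 ± 0.067 (adjusted p = 0.00137), and in wild-type Birc5 changed by 2.04 ± 0.099 (adjusted p = 1.15e-10) and Incenp by 0.90 ± 0.067 (adjusted p = 1.39e-08). Incenp had the smallest response of the 36 genes in wild-type and the highest unchallenged level of the 4 subunits per kilobase of exon, at 12.5 CPM in unchallenged wild-type, against 4.72 for Aurkb, 4.29 for Birc5 and 2.90 for Cdca8. Aurkb averaged 31.6 ± 3 CPM in challenged and 18.8 ± 0.3 CPM in unchallenged Mirc11-/-, against 49.1 ± 3.9 and 13.9 ± 2.7 CPM in challenged and unchallenged wild-type. Cdca8 averaged 32.7 ± 3.5 CPM in challenged and 22.2 ± 0.15 CPM in unchallenged Mirc11-/-, against 46.5 ± 3.3 and 15 ± 0.74 CPM in challenged and unchallenged wild-type, and the responses of these 2 genes differed by -1.19 ± 0.16 (adjusted p = 5.02e-05) and -1.19 ± 0.12 (adjusted p = 3.76e-06).

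At the kinetochore, Cenpa is the histone variant that marks centromeres, Ndc80, Nuf2 and Spc25 are subunits of the Ndc80 complex that grips microtubules, Cenpe is a motor that moves chromosomes to the metaphase plate, and Cenpf is a large coiled-coil protein of the outer plate. Cenpa had the smallest response of the 6 in wild-type. It stood at 69.6, 73.8 and 70.9 CPM in challenged and 59.3, 55.4 and 56 CPM in unchallenged Mirc11-/- libraries, against 88.5, 95.1 and 101 CPM in challenged and 51.9, 51.6 and 44.4 CPM in unchallenged wild-type libraries. Nuf2 had 18.8, 24.4 and 19.9 CPM in challenged and 12.4, 13.2 and 10.6 CPM in unchallenged Mirc11-/- libraries, against 36.5, 32.8 and 30.9 CPM in challenged and 9.06, 10.3 and 8.79 CPM in unchallenged wild-type libraries. Spc25 had 12.4, 13.1 and 11.5 CPM in challenged and 10.9, 11 and 9.16 CPM in unchallenged Mirc11-/- libraries, against 17.7, 16.1 and 15 CPM in challenged and 7.58, 6.7 and 6.05 CPM in unchallenged wild-type libraries. Within the one complex, the change on challenge in Mirc11-/- was 0.79 ± 0.11 (adjusted p = 0.000116) for Nuf2, 0.64 ± 0.1 (adjusted p = 0.000223) for Ndc80 and 0.24 ± 0.11 (adjusted p = 0.127) for Spc25, which was not called, and in wild-type it was 1.94 ± 0.12 (adjusted p = 1.19e-09), 1.68 ± 0.1 (adjusted p = 1.31e-09) and 1.37 ± 0.12 (adjusted p = 6.04e-08) in the same order. Ndc80 averaged 20.6 ± 1.7 CPM in challenged and 13.2 ± 1.4 CPM in unchallenged Mirc11-/-, against 28.9 ± 2.2 and 9.71 ± 0.61 CPM in challenged and unchallenged wild-type. Cenpe averaged 51.6 ± 3.4 CPM in challenged and 32.6 ± 1.3 CPM in unchallenged Mirc11-/-, against 79.2 ± 11 and 22.2 ± 4.7 CPM in challenged and unchallenged wild-type. Cenpf averaged 49.3 ± 4 CPM in challenged and 37.5 ± 1 CPM in unchallenged Mirc11-/-, against 63.6 ± 3.7 and 21.8 ± 2.9 CPM in challenged and unchallenged wild-type. Differences between the responses ran from -0.73 ± 0.099 (adjusted p = 4.2e-05) for Cenpa to -1.29 ± 0.18 (adjusted p = 4.81e-05) for Cenpe.

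The spindle checkpoint genes were the kinases Bub1 and Ttk, the kinase-like Bub1b (BubR1) and Mad2l1 (Mad2), which with Bub1b holds back Cdc20. Bub1 stood at 21.4, 27 and 20.7 CPM in challenged and 12.7, 11.7 and 9.71 CPM in unchallenged Mirc11-/- libraries, against 42.3, 40.7 and 37.1 CPM in challenged and 9.77, 8.18 and 7.21 CPM in unchallenged wild-type libraries. It had the largest response of the 36 genes in both genotypes, 1.01 ± 0.13 (adjusted p = 2.87e-05) in Mirc11-/- and 2.36 ± 0.13 (adjusted p = 4.36e-10) in wild-type. Mad2l1 stood at 37.9, 42.2 and 40.6 CPM in challenged and 28.1, 28 and 23.6 CPM in unchallenged Mirc11-/- libraries, against 59.1, 54.6 and 52.7 CPM in challenged and 25.8, 25.4 and 23.8 CPM in unchallenged wild-type libraries. Its unchallenged groups overlapped and were not called different (log2 0.10 ± 0.083, adjusted p = 0.537), while its challenged groups differed by -0.56 ± 0.079 (adjusted p = 3.11e-05). Bub1b averaged 49 ± 3.2 CPM in challenged and 29.2 ± 0.53 CPM in unchallenged Mirc11-/-, against 67 ± 4.4 and 22.3 ± 4.6 CPM in challenged and unchallenged wild-type. Ttk, the member with the fewest counts (at least 65 in each library), averaged 11.3 ± 1.6 CPM in challenged and 7.01 ± 0.66 CPM in unchallenged Mirc11-/-, against 16.1 ± 1.5 and 4.91 ± 1.4 CPM in challenged and unchallenged wild-type.

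Cdc20 activates the APC/C and Ube2c is the ubiquitin-conjugating enzyme that starts the chains it builds. Ube2c stood at 40.7, 33.8 and 38.2 CPM in challenged and 32.6, 33 and 30.8 CPM in unchallenged Mirc11-/- libraries, against 42, 41.5 and 46.3 CPM in challenged and 15.3, 13.8 and 12.3 CPM in unchallenged wild-type libraries. Its change on challenge was 0.22 ± 0.091 (adjusted p = 0.0938) in Mirc11-/-, not called, and 1.75 ± 0.097 (adjusted p = 4.56e-10) in wild-type, and Ube2c had the largest gap of the 36 without challenge, 1.24 ± 0.097 (adjusted p = 5.38e-07). Without challenged Mirc11-/- replicate 2 its change in Mirc11-/- was called, at 0.30 with an adjusted p of 0.02. Cdc20 stood at 33.6, 28.4 and 29.2 CPM in challenged and 22, 19.9 and 24 CPM in unchallenged Mirc11-/- libraries, against 36.3, 38.9 and 40 CPM in challenged and 17, 17.9 and 13.9 CPM in unchallenged wild-type libraries. Its change on challenge was 0.46 ± 0.1 (adjusted p = 0.00348) in Mirc11-/- and 1.34 ± 0.1 (adjusted p = 2.31e-08) in wild-type.

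Kif11 slides spindle poles apart, Kif2c depolymerises microtubules, Kif4 is a chromokinesin, and Hmmr and Nusap1 bind and bundle spindle microtubules. Kif11 had 67.4, 80.3 and 67.6 CPM in challenged and 43.8, 47.2 and 48.8 CPM in unchallenged Mirc11-/- libraries, against 111, 102 and 105 CPM in challenged and 39.2, 35.5 and 26.6 CPM in unchallenged wild-type libraries. Hmmr averaged 32.7 ± 3 CPM in challenged and 19.3 ± 0.63 CPM in unchallenged Mirc11-/-, against 42.6 ± 4.9 and 12.7 ± 1.9 CPM in challenged and unchallenged wild-type. Nusap1 averaged 43.8 ± 4.5 CPM in challenged and 33.2 ± 2.3 CPM in unchallenged Mirc11-/-, against 52.6 ± 5.4 and 18.4 ± 2.3 CPM in challenged and unchallenged wild-type. All 5 genes of this role were called in the difference between the responses, from -1.11 ± 0.15 (adjusted p = 5.19e-05) for Hmmr to -1.27 ± 0.14 (adjusted p = 6.88e-06) for Kif4. Kif4 lies on the X chromosome and averaged 26.2 ± 0.67 CPM in challenged and 17.2 ± 0.74 CPM in unchallenged Mirc11-/-, against 38.6 ± 3.4 and 11.4 ± 1.7 CPM in challenged and unchallenged wild-type. Kif2c averaged 17.6 ± 1.1 CPM in challenged and 11.5 ± 0.99 CPM in unchallenged Mirc11-/-, against 28.1 ± 3.2 and 8.69 ± 1.3 CPM in challenged and unchallenged wild-type.

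Prc1 bundles the midzone, Kif20a and Kif23 are midzone motors, Ect2 activates RhoA and Anln (anillin) scaffolds the contractile ring. Prc1 averaged 46.9 ± 2.4 CPM in challenged and 37.3 ± 0.78 CPM in unchallenged Mirc11-/-, against 62.7 ± 4.6 and 23.1 ± 4.1 CPM in challenged and unchallenged wild-type. Kif23 averaged 37.9 ± 1.6 CPM in challenged and 26.6 ± 1.3 CPM in unchallenged Mirc11-/-, against 48.6 ± 2.7 and 18.3 ± 1.9 CPM in challenged and unchallenged wild-type, and Kif20a averaged 34.7 ± 1.5, 20.8 ± 2.5, 49.3 ± 3.2 and 13.9 ± 2.5 CPM in the same order. Ect2 had 22.6, 29.6 and 24.7 CPM in challenged and 20.4, 18.4 and 13.6 CPM in unchallenged Mirc11-/- libraries, against 32.7, 34 and 29.7 CPM in challenged and 14.4, 13.8 and 11.8 CPM in unchallenged wild-type libraries. Of the 4 groups of Ect2, the unchallenged ones overlapped, through unchallenged Mirc11-/- replicate 4. Anln had 17.6, 19.7 and 17.4 CPM in unchallenged Mirc11-/- and 13.1, 14 and 10.7 CPM in unchallenged wild-type libraries, and its responses, 0.26 ± 0.11 (adjusted p = 0.0977) in Mirc11-/- and 1.07 ± 0.11 (adjusted p = 8.66e-07) in wild-type, differed by -0.81 ± 0.16 (adjusted p = 0.00109).

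Within groups, the members varied together from library to library. Over the 12 libraries, deviations from the group mean correlated between pairs of members with a median Pearson r of 0.54 (quartiles 0.27 and 0.75), against 0.01 (quartiles -0.32 and 0.34) for 2000 tested genes drawn at random. The points share libraries and depth, so this is a description. Unchallenged wild-type replicate 4 was below its group mean in all 36 genes, by a median of 0.23 on the log2 scale, and challenged wild-type replicate 2 was above its group mean in 4 of 36.

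Genes around the members were counted from lists chosen with earlier results known. The shares over all tested genes to set beside these counts are 15.6% higher and 11.5% lower on challenge in Mirc11-/-, 32.4% higher and 30.9% lower on challenge in wild-type, and 18.5% with a lower response in Mirc11-/-. Of 34 other kinetochore and centromere genes, 14 rose on challenge in Mirc11-/- libraries, 28 rose and 1 fell in wild-type libraries, and in 21 the response was lower in Mirc11-/-. Kntc1, which recruits dynein to kinetochores, averaged 30.1 ± 1.5 CPM in challenged and 18.2 ± 0.64 CPM in unchallenged Mirc11-/-, against 51.6 ± 0.55 and 12.5 ± 2.3 CPM in challenged and unchallenged wild-type. Of 29 other spindle, motor and cytokinesis genes, 16 rose and 1 fell in Mirc11-/-, 22 rose and 2 fell in wild-type, and in 19 the response was lower in Mirc11-/-; Dlgap5, a spindle assembly factor, differed by -1.40 ± 0.12 (adjusted p = 5.76e-07). Of 20 condensin, cohesin and separase genes, 9 rose in Mirc11-/-, 13 rose and 1 fell in wild-type, and 9 had the lower response, among them separase, Espl1, at -1.24 ± 0.17 (adjusted p = 5.22e-05). Of 16 mitotic entry regulators, 11 rose and 1 fell in Mirc11-/-, 14 rose and 1 fell in wild-type, and 11 had the lower response, among them cyclin F, Ccnf, at -1.55 ± 0.17 (adjusted p = 7.07e-06). Of 17 other APC/C subunits and regulators, 3 rose in Mirc11-/-, 6 rose and 2 fell in wild-type, and 4 had the lower response. In this APC/C list alone of the 5, the rises and the lower responses were near the shares over all tested genes. Its falls in wild-type were fewer than the 30.9% of all tested genes. Medians of the difference between the responses were -0.59, -0.89, -0.19, -0.68 and -0.10 for these 5 lists, against -1.19 for the 36 members and 0 for all tested genes.

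Genes that act before mitosis were counted in the same way. Of 15 G1/S and replication genes, 11 rose on challenge in Mirc11-/- libraries, against 15.6% of all tested genes, 14 rose in wild-type libraries, against 32.4%, and 12 had a lower response in Mirc11-/-, against 18.5%. Rrm2, a subunit of ribonucleotide reductase, averaged 99.1 ± 3.1 CPM in challenged and 66.2 ± 0.52 CPM in unchallenged Mirc11-/-, against 134 ± 1.3 and 33.1 ± 5.8 CPM in challenged and unchallenged wild-type. Without challenge 3 of the 15 were higher in Mirc11-/-, Rrm2 among them (log2 1.02 ± 0.092, adjusted p = 2.2e-06), against 6.64% of all tested genes, and the list's median was 0.11, against 0.58 for the 36 mitosis genes. Whether the 2 lists differ in this was not tested. Among 19 E2F, RB and MuvB regulators, which switch these promoters on and off, 8 rose and 3 fell in Mirc11-/-, against 15.6% and 11.5% of all tested genes, and 13 rose and 3 fell in wild-type, against 32.4% and 30.9%. Of the 19, 7 had a lower and 2 a higher response in Mirc11-/-, against 18.5% and 16.7% of all tested genes. The median difference was -0.26. Mybl2, the B-Myb partner of MuvB, had a response in Mirc11-/- that differed from the wild-type one by -1.17 ± 0.15 (adjusted p = 1.97e-05), and Tfdp2, a dimer partner of E2F, by 1.15 ± 0.13 (adjusted p = 6.56e-06).

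The 7 CDK inhibitors, which brake the cycle, did not share one direction. Cdkn1a (p21) measured 22.8, 19.8 and 15.5 CPM in challenged and 5.22, 5.79 and 7.08 CPM in unchallenged Mirc11-/- libraries, against 78.4, 98.6 and 93.4 CPM in challenged and 5.13, 5.68 and 4.22 CPM in unchallenged wild-type libraries. It thus rose alongside the mitosis genes, by 1.67 ± 0.16 (adjusted p = 1.97e-06) in Mirc11-/- and 4.27 ± 0.16 (adjusted p = 1.03e-11) in wild-type, with a difference of -2.60 ± 0.22 (adjusted p = 6.32e-07). Cdkn2b (p15) rose by 1.04 ± 0.27 (adjusted p = 0.0111) in Mirc11-/- and 2.80 ± 0.24 (adjusted p = 5.98e-08) in wild-type, and Cdkn2a, at under 3 CPM in every library, by 1.88 ± 0.65 (adjusted p = 0.0439) and 2.23 ± 0.5 (adjusted p = 0.00121). Cdkn2c (p18) stood at -0.09 ± 0.088 (adjusted p = 0.483) in Mirc11-/- (not called) and 0.38 ± 0.089 (adjusted p = 0.00164) in wild-type. Cdkn1b (p27) fell in wild-type, by 0.66 on the log2 scale, and its value was -0.09 ± 0.13 (adjusted p = 0.652) in Mirc11-/- (not called), while Cdkn2d (p19) fell in both, at -0.40 ± 0.11 (adjusted p = 0.0151) in Mirc11-/- and -0.54 ± 0.11 (adjusted p = 0.00073) in wild-type. Cdkn1c (p57) stood at -0.48 ± 0.22 (adjusted p = 0.127) in Mirc11-/- (not called) and -1.10 ± 0.23 (adjusted p = 0.000773) in wild-type.

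Markers of other cells moved with the groups. All 9 NK cell markers were found in each group, with a summed level of 5950 to 6430 CPM in challenged and 8090 to 8220 CPM in unchallenged Mirc11-/- libraries, against 4610 to 4720 CPM in challenged and 7660 to 8620 CPM in unchallenged wild-type libraries. On challenge 8 of the 9 fell in Mirc11-/-, against 11.5% of all tested genes, and 7 fell and 1 rose in wild-type, against 30.9% and 32.4%. Between genotypes, the median log2 fold change of the 9 was 0.04 without challenge, and after challenge it was 1.06, with 6 called higher and 1 lower in Mirc11-/-, against 22.7% and 25.9% of all tested genes. The 17 erythroid markers summed to 20400 to 25500 CPM in challenged and 37300 to 41900 CPM in unchallenged Mirc11-/- libraries, against 1930 to 2500 CPM in challenged and 12000 to 13900 CPM in unchallenged wild-type libraries. They were thus highest in unchallenged Mirc11-/- and lowest in challenged wild-type, where the mitosis genes were highest; 15 of 17 were higher in Mirc11-/- without challenge, against 6.64% of all tested genes, and 15 of 17 after it, against 22.7%. On challenge 13 of them fell in Mirc11-/-, against 11.5%, while 12 fell and 2 rose in wild-type, against 30.9% and 32.4%. The 12 granulocyte precursor and neutrophil markers summed to 745 to 1150 CPM in challenged and 451 to 463 CPM in unchallenged Mirc11-/- libraries, against 1420 to 1690 CPM in challenged and 43.5 to 48.8 CPM in unchallenged wild-type libraries. Without challenge 12 of 12 were higher in Mirc11-/-, against 6.64% of all tested genes, and after challenge 5 were higher and 5 lower, against 22.7% and 25.9%. On challenge 9 rose and 3 fell in Mirc11-/-, against 15.6% and 11.5%, 12 of 12 rose in wild-type, against 32.4%, and 12 of 12 had a lower response in Mirc11-/-, against 18.5%. The sum has the group order of the mitosis genes, as do the sums of the G1/S and replication genes and of the macrophage and monocyte markers. By single gene, 5 of 12 granulocyte markers (Ms4a3, S100a8, S100a9, Ly6g and Mmp8), 4 of 9 macrophage markers and 12 of 15 G1/S genes have it, against 36 of 36 mitosis genes. B cell markers (6) summed to 1350 to 1450 CPM in challenged and 894 to 934 CPM in unchallenged Mirc11-/-, against 1660 to 1730 and 1260 to 1430 CPM in challenged and unchallenged wild-type, and T cell markers (7) to 225 to 255 and 149 to 164 CPM, against 142 to 144 and 213 to 242 CPM. Macrophage and monocyte markers (9) summed to 955 to 1190 CPM in challenged and 891 to 954 CPM in unchallenged Mirc11-/-, against 1200 to 1340 and 853 to 905 CPM in challenged and unchallenged wild-type, and haematopoietic progenitor markers (3) to 127 to 140 and 137 to 145 CPM, against 219 to 227 and 205 to 238 CPM. Plasma cell markers (6) summed to 457 to 543 and 352 to 385 CPM in challenged and unchallenged Mirc11-/-, against 423 to 491 and 348 to 413 CPM in challenged and unchallenged wild-type, and megakaryocyte and platelet markers (5) to 191 to 237 and 165 to 183 CPM, against 149 to 177 and 347 to 469 CPM. No marker was at 0 throughout a group. The part of these cells in the levels of the mitosis genes was not tested.

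**Figure D5:**
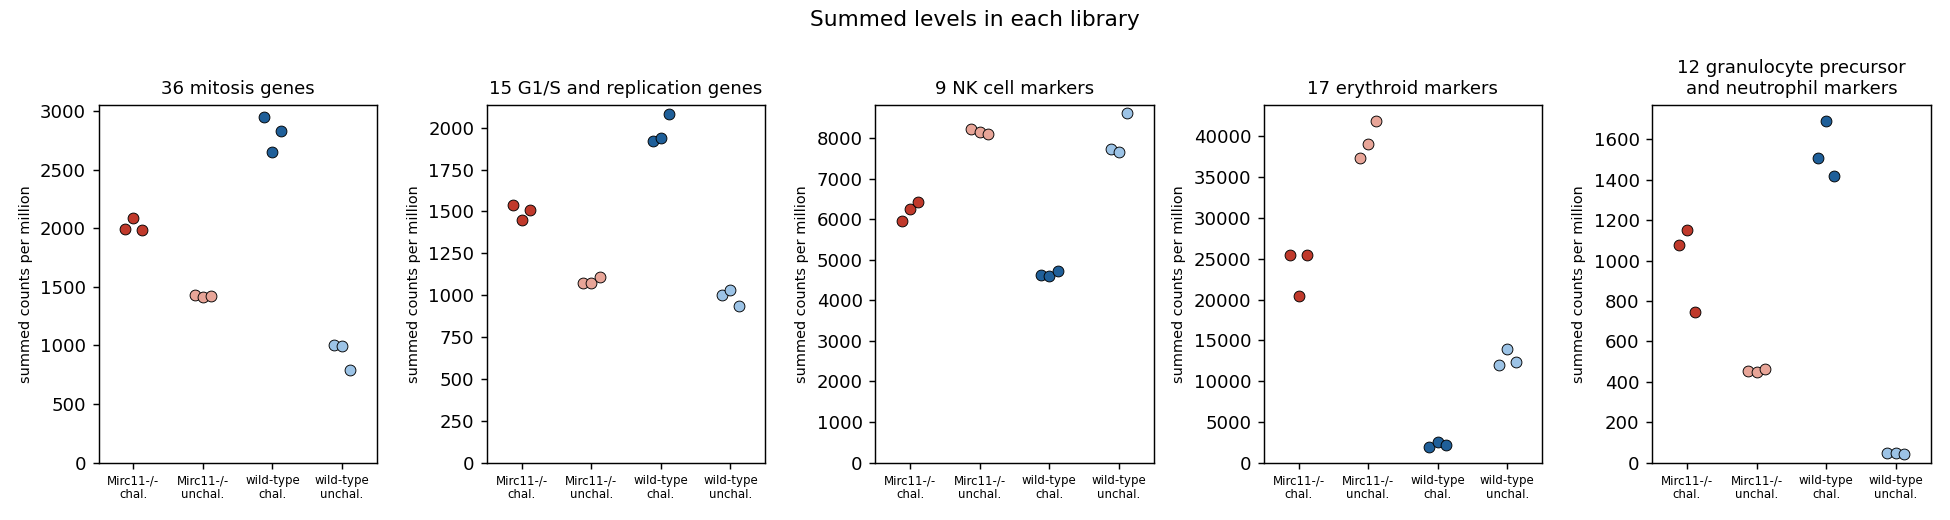
Summed CPM in each library of the 36 mitosis genes, 15 G1/S and replication genes, and NK cell, erythroid, and granulocyte precursor and neutrophil markers, with groups from left to right as challenged Mirc11-/-, unchallenged Mirc11-/-, challenged wild-type and unchallenged wild-type. The sums of the mitosis genes, G1/S genes and granulocyte markers share an order of groups, whereas erythroid markers are highest in unchallenged Mirc11-/- (37300 to 41900 CPM) and lowest in challenged wild-type (1930 to 2500 CPM).

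The Mirc11 cluster encodes 3 microRNAs, whose mature sequences are shown because their seeds (bases 2 to 8, in capitals) set the letters searched for in the members. They lie on the plus strand of chromosome 8 (GRCm38.p6, RefSeq).
miR-23a-3p (chr8:84208563-84208583): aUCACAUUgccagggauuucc
miR-24-3p (chr8:84208875-84208896): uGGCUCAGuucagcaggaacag
miR-27a-3p (chr8:84208727-84208747): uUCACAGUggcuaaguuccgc
Seeds of miR-23a-3p and miR-27a-3p share their first 5 bases, and that of miR-24-3p is unrelated. Sites were searched on the sense strand of the longest annotated 3' UTR (GENCODE vM21), as the 7 bases complementary to the seed, which are AATGTGA for miR-23a-3p, CTGAGCC for miR-24-3p and ACTGTGA for miR-27a-3p. The miR-23a-3p sites were in 4 of 36 members, or 11.1%, against 16.3% of 13486 tested genes, miR-24-3p sites in 6 of 36, or 16.7%, against 19.1%, and miR-27a-3p sites in 4 of 36, or 11.1%, against 17.4%. Median UTR length was 634 bases in members and 1162 bases in tested genes, and the shares were not tested or corrected for it. The miR-23a-3p sites were in Birc5, Cenpf, Mad2l1 and Ube2c, the miR-27a-3p sites in Aurka, Cdk1, Mad2l1 and Nusap1, and the miR-24-3p sites in Birc5, Cdk1, Foxm1, Mad2l1, Plk1 and Tpx2. Of all these sites, 4 have an adenine after the 7 bases (8mer sites), and they are shown with their context, the site in capitals.
Mad2l1, miR-23a-3p site: acagtacagttAATGTGAAgacgcaaatgc
Birc5, miR-24-3p site: agtgctaagggCTGAGCCAcaccacaacta
Foxm1, miR-24-3p site: aaaagtcaagcCTGAGCCAagtatctcgta
Mad2l1, miR-24-3p site: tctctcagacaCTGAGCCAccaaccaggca
Of the genes with a miR-24-3p site, Birc5, Cdk1, Foxm1, Plk1 and Tpx2 were higher in Mirc11-/- libraries without challenge, by log2 values of 0.92, 0.72, 0.54, 0.58 and 0.59, and Mad2l1 stood at 0.10, not called. After challenge all 6 were lower, from -0.54 for Birc5 to -0.80 for Tpx2. Of all 36 members, with or without a site, 30 were called higher without challenge and 35 lower after it. The part of the sites in these differences was not tested.

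Some reads could belong to neighbours or copies, since the sources used here do not state whether counting was strand-aware. Exons of Kif20a overlap those of Cdc23 on the other strand over 29.3% of their length, and Ube2c those of Tnnc2 over 22.8%, though Tnnc2 had 10 counts in all 12 libraries together. The shares were 15.1% for Kif4 with Pdzd11, 12.5% for Ccna2 with Exosc9 and 11.1% for Prc1 with Rccd1. Transcripts that match a member at 90% identity or more over at least 200 bases could share its reads. With counts summed over all libraries, 2700099C18Rik had 1297 and Gm1976 had 689 against 4683 for Ndc80. Gm8956 had 834 counts against 8164 for Ube2c, Plk-ps1 had 417 against 6852 for Plk1, Gm14963 had 114 against 8939 for Birc5, Gm15697 had 53 against 16719 for Kif11, and Gm4961 had 30 against 4268 for Kif2c. Ccnb2-ps, matched by name, had 787 counts against 8101 for Ccnb2. Parts of Hmmr, of 204 to 391 bases, and of Cenpf, of 203 to 207 bases, match transcripts of several other genes, some with more counts than the member (Gga3 had 28999 counts against 6950 for Hmmr, and Zmynd8 had 29381 against 11097 for Cenpf). How reads were divided between these transcripts was not tested.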

How the data were processed

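The authors deposited whole-number counts per gene for 12 libraries of polyA RNA (Trizol, Illumina TruSeq RNA, per the labels' protocols). The submitters' processing notes name RSEM 1.3.0 with Bowtie2 2.2.8, Trim Galore 0.4.1, bcl2fastq, and GRCm38 as build. The sources used here do not give the annotation release, the strand setting or how RSEM values became whole numbers. Library totals were 17624530 to 23665679 counts, so 1 count was 0.0423 to 0.0567 CPM. CPM used column totals. Genes were filtered by filterByExpr, scaled by TMM and tested in one robust edgeR 4.0.16 quasi-likelihood model (R 4.3.3) with a term per group, with Benjamini-Hochberg adjustment over 16694 genes and a threshold of 0.05. Standard errors were worked out as the size of the log2 fold change over the square root of its F statistic. Alternatives were other scalings, other filters, DESeq2 1.42.0, limma 3.58.1 voom, fits of only the groups compared, a replicate block and leaving out each library. Sequences came from RefSeq, and 3' UTRs from GENCODE vM21. All 36 members were described; beyond them up to 3 genes a list were eligible to be named, those with the smallest unadjusted p for challenge in wild-type or for the difference between responses, and CDK inhibitors in full. Members and lists were chosen with earlier results of these data known. No libraries were duplicates. Same-numbered libraries did not deviate together in every pair, and numbers were not used as pairs. The titles also number the unchallenged libraries in another way, which was not checked. The fits were tested on simulated data in which few genes changed, equally up and down, in challenged wild-type only. That test does not cover changes as wide as those seen here on challenge.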

Additional observations from a re-analysis of the deposited data

Results flagged for a closer look

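The challenge response differed between Mirc11-/- and wild-type libraries in each of the 36 mitosis genes, by the test of the difference itself (edgeR quasi-likelihood F test, adjusted p below 0.05), which called 18.5% of all tested genes lower. Values are the Mirc11-/- response minus the wild-type response on the log2 scale. The transcription factor differed by -1.32 for Foxm1. For the cyclins and Cdk1 the difference was -1.11 for Ccnb1, -1.46 for Ccnb2, -1.21 for Ccna2 and -1.29 for Cdk1. Among the mitotic kinases and Tpx2 it was -1.29 for Plk1, -1.12 for Aurka and -1.39 for Tpx2. For the chromosome proteins it was -1.31 for Top2a and -1.32 for Mki67. In the chromosomal passenger complex the values were -1.19 for Aurkb, -1.46 for Birc5, -1.19 for Cdca8 and -0.56 for Incenp. Kinetochore genes differed by -0.73 for Cenpa, -1.29 for Cenpe, -1.26 for Cenpf, -1.04 for Ndc80, -1.15 for Nuf2 and -1.12 for Spc25. Checkpoint genes differed by -1.35 for Bub1, -0.96 for Bub1b, -1.15 for Ttk and -0.66 for Mad2l1. The APC/C partners differed by -0.88 for Cdc20 and -1.53 for Ube2c. Spindle motors and microtubule proteins differed by -1.15 for Kif11, -1.20 for Kif2c, -1.27 for Kif4, -1.23 for Nusap1 and -1.11 for Hmmr. Midzone and cytokinesis genes differed by -1.20 for Kif20a, -1.02 for Kif23, -1.22 for Prc1, -0.81 for Anln and -0.83 for Ect2.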

How the results depend on the processing

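Challenge in wild-type and the difference between the responses kept all 36 mitosis genes called under every alternative run. The count for challenge in Mirc11-/- ran from 29 to 33 when a library was left out, that for Mirc11-/- over wild-type without challenge from 24 to 33, and that after challenge from 34 to 35; column totals alone gave 28 and 32 for the last 2 comparisons. Medians over the members with a library left out were 0.56 to 0.59 for challenge in Mirc11-/-, 1.64 to 1.84 in wild-type, 0.47 to 0.64 without challenge, -0.58 to -0.52 after challenge and -1.27 to -1.08 for the difference. No member reversed. Deviations of same-numbered libraries from their group means correlated at -0.405 to 0.303. Deviations from means of 3 libraries cannot settle whether libraries were paired. With the replicate block, 28 members were called for challenge in Mirc11-/- and 30 without challenge. Of all genes, 3078 against 4511 were called for challenge in Mirc11-/-, 9714 against 10577 in wild-type, and 1708 against 1955 without challenge. Among all called genes the share called higher moved to 46.7% from 57.5% under upper-quartile scaling for challenge in Mirc11-/-, and under column totals was 59.2% against 46.7% after challenge and 61.7% against 47.5% for the difference. The median of all genes shifted by -0.12 (upper quartile) and -0.11 (column totals) for challenge in wild-type and by 0.12 (column totals) for the difference. The causes were not tested.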
